A study of Mus musculus with 22 samples.

Results

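Podocytes are the cells that wrap the glomerular capillaries, and 6 genes that mark them were followed through mouse kidney cortex: Nphs1, Podxl, Synpo, Wt1, Ptpro and Clic3. They were taken by gene symbol, 6 of the 16556 genes in the count table, and each was present in all 22 libraries. Messenger RNA was measured by 3′ tag sequencing, which reads each transcript near its 3′ end, in cortex of male C57BL/6J mice. The study removed carnitine acetyltransferase (Crat, a mitochondrial enzyme that joins and splits acetylcarnitine) from proximal tubular cells with Cre recombinase driven by the Ggt promoter. These mice are called Pt-CrAT, and those without the Cre driver fl/fl. There were 3 Pt-CrAT and 3 fl/fl libraries at 12 months with LFD in the title (not spelled out in the labels), 3 and 3 at 15 months on chow, and 5 and 5 at 24 months on chow. Age and diet change together between the 12-month group and the older ones, so levels at 12 months were not tested against those at other ages. Genotypes were compared within each setting, those differences were averaged over the 3 settings and tested for variation among them, and 24 months was compared with 15 months on chow. Whether each title is a separate animal, and from which litter, is not stated beyond the titles, so p-values measure the spread between these libraries.

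Podocytes send out interlocking foot processes, and the gaps between them are bridged by the slit diaphragm, the last layer of the filter that keeps protein in the blood. Their shape rests on an actin skeleton, on a charged coat that faces the urine and on a gene programme held by a few transcription factors. Podocytes cannot readily be replaced, and their loss is a well-known step towards glomerular scarring, also with age.

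Upstream sequence was read from a RefSeq table (GRCm38.p6), which matched 3 of the 6 members, Nphs1, Ptpro and Clic3. The window of Nphs1 is not shown. The 250 bases before the start of Ptpro (chr6:137252049-137252298) and of Clic3 (chr2:25456593-25456842), both on the plus strand, are given because Wt1, also in the set, encodes a zinc-finger factor, and factors of the WT1 and EGR families bind G-rich elements. Capitals mark GTGGGNG, searched on both strands and chosen after the sequences were seen.
Ptpro: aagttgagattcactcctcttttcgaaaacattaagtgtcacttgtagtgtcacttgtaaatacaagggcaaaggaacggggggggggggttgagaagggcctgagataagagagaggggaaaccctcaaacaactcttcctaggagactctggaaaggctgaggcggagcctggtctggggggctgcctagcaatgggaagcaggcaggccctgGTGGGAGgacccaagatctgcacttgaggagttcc
Clic3: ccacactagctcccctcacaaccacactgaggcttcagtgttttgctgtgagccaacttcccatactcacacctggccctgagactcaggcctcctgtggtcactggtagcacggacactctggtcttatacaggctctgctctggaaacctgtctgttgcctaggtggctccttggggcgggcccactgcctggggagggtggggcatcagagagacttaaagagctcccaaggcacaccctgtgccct
The upstream bases of Ptpro hold 1 match, whose first base lies 35 bases before the start, and those of Clic3 hold none. Of 32851 windows of this length in the table, 28.1% hold a match. A match describes the letters only.

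Each member stands for a different portion of that machinery. Wt1 (ENSMUSG00000016458, chr2:105126529-105173616, plus strand) encodes the zinc-finger transcription factor that holds the podocyte programme. Nphs1 (ENSMUSG00000006649, chr7:30458315-30487223, plus strand) encodes nephrin, the adhesion protein that spans the slit. Podxl (ENSMUSG00000025608, chr6:31519488-31563981, minus strand) encodes podocalyxin, the charged sialomucin of the urine-facing surface, which vascular endothelium also carries. Ptpro (ENSMUSG00000030223, chr6:137252319-137463233, plus strand) encodes a receptor-type tyrosine phosphatase of the same surface. Synpo (ENSMUSG00000043079, chr18:60593973-60660142, minus strand) encodes synaptopodin, an actin-binding protein of the foot process. Clic3 (ENSMUSG00000015093, chr2:25456838-25458776, plus strand) belongs to the chloride intracellular channel family. Coordinates are those of GENCODE M21 on GRCm38, where all 6 are protein-coding. Nphs1 shares 597 exonic bases with the antisense gene Nphs1os and a shorter stretch with the pseudogene Rps12-ps4, none of them in its last exon. The strand setting of the counting is not known here, so reads from such bases could not be told apart. Clic3 overlaps Paxx and Ptpro overlaps Gm44258, with no exonic base shared.

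Total counts ran from 12175804 to 17447367 per library, with CrAT12MLFD345 at 53157575, and 15064 genes were tested. All 6 members passed the filter on low counts. The fewest reads behind a value were 15 for Clic3 and 19 for Nphs1, against 873 for Podxl, so Clic3 and Nphs1 carry the most counting error. Levels are CPM, counts scaled to library size with TMM factors. At 24 months Crat averaged 36.2 ± 4.41 CPM in Pt-CrAT and 74.7 ± 24.4 CPM in fl/fl libraries (SD, n = 5 each; exact two-sided permutation p = 0.00794, the smallest possible; edgeR adjusted p over all genes = 0.177). In the 12-month libraries it averaged 62.5 ± 19.4 CPM in Pt-CrAT and 78.9 ± 22.5 CPM in fl/fl (SD, n = 3 each; exact permutation p = 0.4). In the 15-month libraries it went against the labels, with 69.1 ± 5.27 CPM in the libraries labelled Pt-CrAT and 45.3 ± 13.3 CPM in those labelled fl/fl (SD, n = 3 each; exact permutation p = 0.1, the smallest possible). Directions at 15 months are therefore given for the libraries as labelled. Cdkn1c, a cell-cycle inhibitor gene of mature podocytes outside the set, stood at 11.4 to 33.1 CPM, so this marker was read in every library. In whole cortex, fewer podocytes and less of a transcript per podocyte cannot be told apart.

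None of the 6 genes differed between Pt-CrAT and fl/fl past the threshold in any setting (edgeR quasi-likelihood test, Benjamini-Hochberg adjustment over 15064 genes, threshold 0.05). At 12 months 0 of 6 members passed, where 16.4% of all genes tested did, 8.41% higher and 7.95% lower in Pt-CrAT. That background was unstable: 2464 genes passed with all libraries, 53 without CrAT12MLFD328, 3513 without CrAT12MLFD345 and 1 in a fit of the 6 libraries of this setting alone. In each of the 15- and 24-month settings 0 of 6 members passed, and 0% of all genes did. By unadjusted p under 0.05 there were 1 member (Podxl) at 12 months, 1 (Podxl) at 15 months and 0 at 24 months, beside 33.7%, 8.29% and 9.35% of all genes. The median log2 fold change of the 6 was 0.39 at 12 months, 0.44 at 15 months and 0.10 at 24 months. DESeq2 called none of the 6 in these 3 comparisons either, but gave no adjusted p for 2 of them at 24 months.

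**Figure D1:**
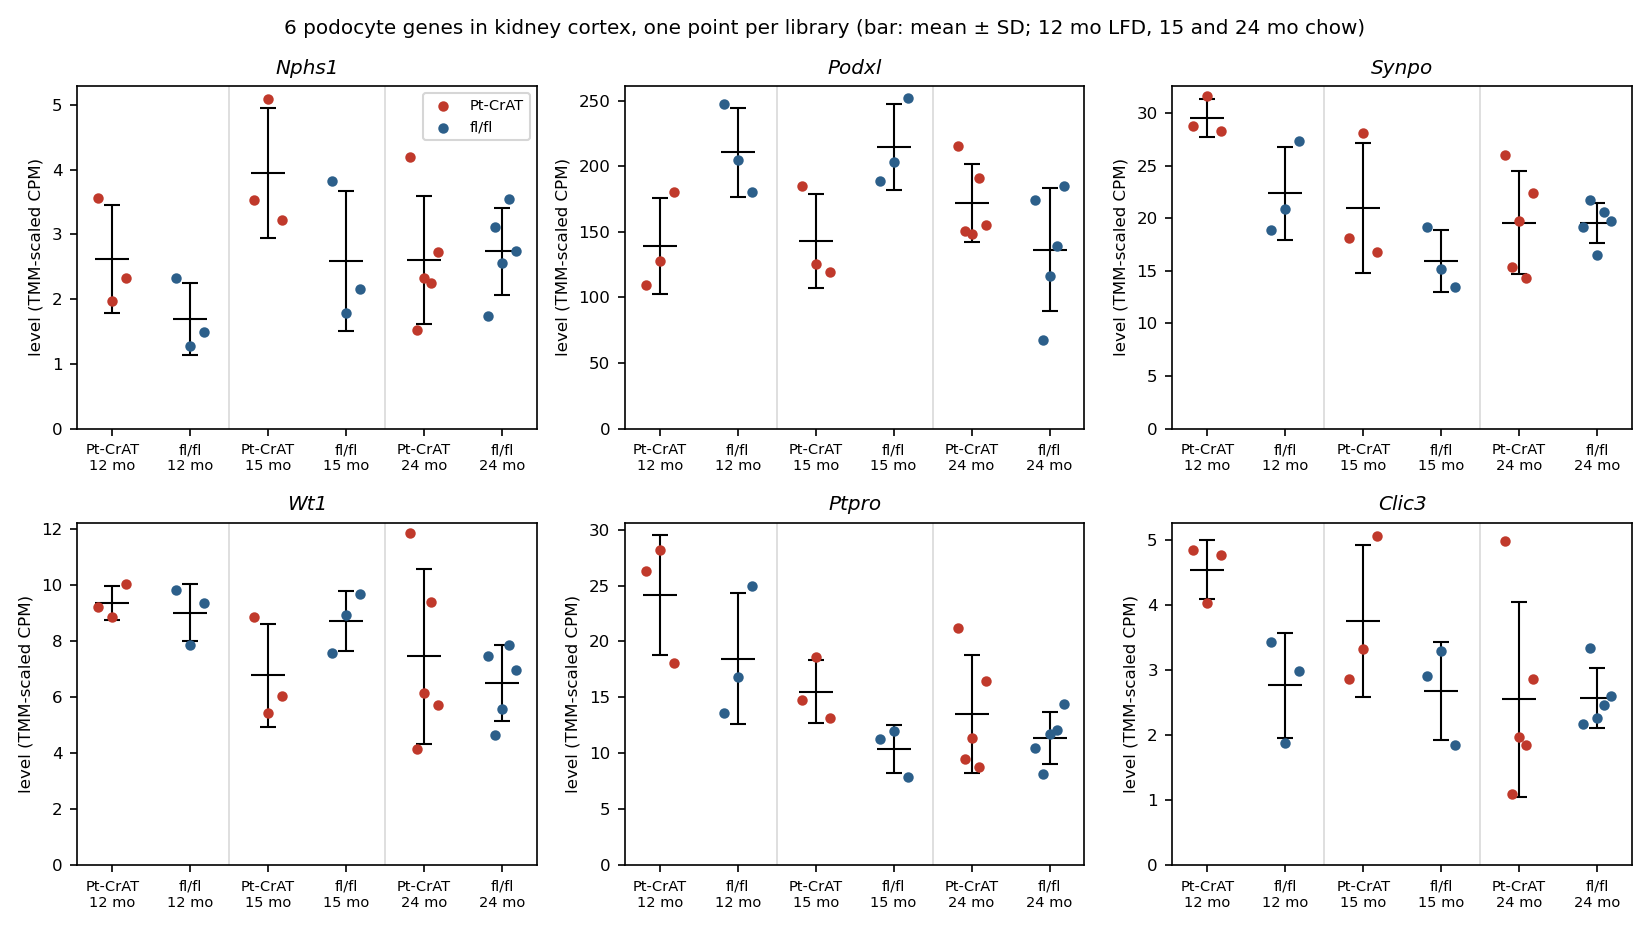
Level of each podocyte gene in every library (y axis, TMM-scaled CPM from 0; x axis, the 6 groups, Pt-CrAT in red and fl/fl in blue; black bar and whiskers, mean ± SD). In the Podxl panel the Pt-CrAT mean lies below the fl/fl mean at 12 and 15 months (libraries as labelled) and above it at 24 months, and 1 Pt-CrAT library at 24 months is the top point of its group in all 6 panels.

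Wt1, the transcription factor, showed no separation of the genotypes. At 12 months it stood at 9.22, 8.87 and 10.05 CPM in Pt-CrAT libraries, against 9.83, 7.88 and 9.36 CPM in fl/fl libraries. At 15 months it stood at 8.88, 5.45 and 6.03 CPM in libraries labelled Pt-CrAT, against 7.57, 8.93 and 9.68 CPM in those labelled fl/fl. At 24 months it stood at 11.9, 4.14, 6.15, 9.40 and 5.73 CPM in Pt-CrAT, against 7.47, 4.67, 5.58, 7.87 and 6.96 CPM in fl/fl. Values of the genotypes overlapped in all 3 settings, and both the highest and the lowest of the 22 values were in Pt-CrAT cortex at 24 months. The log2 fold changes were 0.06 (SE 0.28, adjusted p = 0.906), -0.36 (SE 0.29, adjusted p = 0.645) and 0.20 (SE 0.22, adjusted p = 0.778) at 12, 15 and 24 months. Without CrAT24Mchow123 the difference at 24 months was -0.03, and at 15 months it was -0.61 without CrAT15Mchow183 and -0.24 without CrAT15Mchow185. In order of mean, the groups ran fl/fl 24 months, Pt-CrAT 15, Pt-CrAT 24, fl/fl 15, fl/fl 12 and Pt-CrAT 12 months, from 6.51 ± 1.35 to 9.38 ± 0.60 CPM, and no neighbours in that order differed by more than the larger of their SDs. Sorting makes neighbours close, and picking the extremes of 6 groups sets those far apart. The lowest and highest groups differed by more than the sum of their SDs. For Wt1 these groups differ in genotype, age and diet together.

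Nphs1, the slit gene, was read at low level. Levels at 12 months stood at 3.56, 1.97 and 2.33 CPM in Pt-CrAT, against 2.32, 1.27 and 1.49 CPM in fl/fl. Levels at 15 months stood at 3.54, 5.10 and 3.22 CPM in libraries labelled Pt-CrAT, against 3.82, 1.79 and 2.15 CPM in those labelled fl/fl. Levels at 24 months stood at 4.19, 1.53, 2.33, 2.25 and 2.72 CPM in Pt-CrAT, against 1.75, 3.11, 2.56, 3.55 and 2.74 CPM in fl/fl. In both younger settings 2 of the 3 fl/fl values lay below all Pt-CrAT values, while at 24 months the groups overlapped widely. The log2 fold change was 0.62 at 12 months (SE 0.37, adjusted p = 0.248), 0.62 at 15 months (SE 0.36, adjusted p = 0.581) and -0.07 at 24 months (SE 0.28, adjusted p = 0.945). The 95% confidence interval of the fold at 24 months ran from 0.640 to 1.42. The difference was 0.39 at 12 months without CrAT12MLFD328, and at 15 months 0.38 without CrAT15Mchow185 and 1.01 without Wt15Mchow205. In order of mean, the groups ran fl/fl 12 months, fl/fl 15, Pt-CrAT 24, Pt-CrAT 12, fl/fl 24 and Pt-CrAT 15 months, from 1.69 ± 0.55 to 3.95 ± 1.005 CPM. In that order the step between fl/fl 24 months and Pt-CrAT 15 months alone exceeded the larger SD.

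Podxl, of the charged surface coat, was the member with the smallest p in both younger settings. At 12 months it stood at 109, 128 and 181 CPM in Pt-CrAT, against 247, 204.6 and 180.2 CPM in fl/fl. At 15 months it stood at 184.6, 126 and 119.6 CPM in libraries labelled Pt-CrAT, against 189, 203.5 and 252 CPM in those labelled fl/fl. At 24 months it stood at 216, 150.4, 149, 191 and 155 CPM in Pt-CrAT, against 174, 67.9, 116, 139 and 185.1 CPM in fl/fl. At 15 months all 3 libraries labelled Pt-CrAT lay below all 3 labelled fl/fl, as did 12.7% of all genes tested; at 12 months 1 Pt-CrAT value was barely above the lowest fl/fl value, and at 24 months the groups overlapped. The log2 fold change was -0.59 at 12 months (SE 0.27, unadjusted p = 0.0387, adjusted p = 0.126), -0.58 at 15 months (SE 0.27, unadjusted p = 0.0422, adjusted p = 0.581) and 0.33 at 24 months (SE 0.21, adjusted p = 0.603). The difference at 24 months was 0.16 without Wt24Mchow154.

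Whether the genotype difference varied among the 3 settings was tested directly. The 12-month setting differs from the others in age and in diet, and the test cannot tell these apart. The test also takes the 15-month libraries as labelled, where Crat went against the labels. Podxl had an unadjusted p of 0.0131 and an adjusted p of 0.088, and the other 5 members had adjusted p-values from 0.388 to 0.782. In that test 0 of 6 members passed, beside 5.07% of all genes tested. The Podxl call turned on the choice of tool and of libraries. DESeq2 gave an adjusted p of 0.0392, and edgeR gave 0.0415 without CrAT12MLFD345 and 0.0492 without Wt24Mchow145. Of the 22 edgeR fits with 1 library left out, 20 did not pass, and the adjusted p rose to 0.18 without CrAT12MLFD328. In order of mean, Podxl ran fl/fl 24 months, Pt-CrAT 12, Pt-CrAT 15, Pt-CrAT 24, fl/fl 12 and fl/fl 15 months, from 137 ± 47.3 to 215 ± 33.2 CPM. In that order the step between Pt-CrAT 24 months and fl/fl 12 months alone exceeded the larger SD.

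Ptpro, the phosphatase of the same surface, leaned the other way from Podxl in the younger settings. Levels at 12 months stood at 26.3, 28.2 and 18.1 CPM in Pt-CrAT, against 13.6, 16.8 and 25.0 CPM in fl/fl. Levels at 15 months stood at 14.8, 18.6 and 13.1 CPM in libraries labelled Pt-CrAT, against 11.2, 12.0 and 7.92 CPM in those labelled fl/fl. Levels at 24 months stood at 21.2, 9.52, 11.4, 8.80 and 16.5 CPM in Pt-CrAT, against 10.48, 8.16, 11.7, 12.1 and 14.4 CPM in fl/fl. At 15 months all 3 libraries labelled Pt-CrAT were above all 3 labelled fl/fl, as were 11.6% of all genes tested, and in the other settings the groups overlapped. The log2 fold change was 0.38 at 12 months (SE 0.29, adjusted p = 0.372), 0.58 at 15 months (SE 0.30, adjusted p = 0.581) and 0.24 at 24 months (SE 0.23, adjusted p = 0.72). At 24 months it was 0.02 without CrAT24Mchow123, and at 12 months 0.20 without Wt12MLFD326 and 0.67 without Wt12MLFD368. In order of mean, the groups ran fl/fl 15 months, fl/fl 24, Pt-CrAT 24, Pt-CrAT 15, fl/fl 12 and Pt-CrAT 12 months, from 10.4 ± 2.16 to 24.2 ± 5.39 CPM, and no neighbours differed by more than the larger SD.

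Synpo, of the foot-process skeleton, had the smallest spread of the 6 between replicates, with a biological coefficient of variation of 18.7%. At 12 months it stood at 28.8, 31.6 and 28.3 CPM in Pt-CrAT, against 18.9, 20.9 and 27.3 CPM in fl/fl. At 15 months it stood at 18.1, 28.1 and 16.7 CPM in libraries labelled Pt-CrAT, against 19.1, 15.2 and 13.4 CPM in those labelled fl/fl. At 24 months it stood at 26.0, 15.3, 19.7, 14.3 and 22.4 CPM in Pt-CrAT, against 19.1, 21.7, 16.5, 20.6 and 19.8 CPM in fl/fl. At 12 months all 3 Pt-CrAT values lay above all 3 fl/fl values, as they did for Clic3, so 2 of the 6 members were separated upwards where 16.3% of all genes were, and 30.1% were separated either way. The log2 fold change was 0.40 at 12 months (SE 0.22, adjusted p = 0.195), 0.40 at 15 months (SE 0.22, adjusted p = 0.581) and 0.0018 at 24 months (SE 0.17, adjusted p = 0.998). The 95% confidence interval of the fold at 24 months ran from 0.787 to 1.27. The difference at 15 months was 0.12 without CrAT15Mchow185. In order of mean, the groups ran fl/fl 15 months, fl/fl 24, Pt-CrAT 24, Pt-CrAT 15, fl/fl 12 and Pt-CrAT 12 months, from 15.9 ± 2.91 to 29.6 ± 1.82 CPM. In that order the first step and the last step exceeded the larger SD.

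Clic3 was read at low level, like Nphs1. Levels at 12 months stood at 4.84, 4.03 and 4.77 CPM in Pt-CrAT, against 3.44, 1.87 and 2.99 CPM in fl/fl. Levels at 15 months stood at 2.86, 3.33 and 5.07 CPM in libraries labelled Pt-CrAT, against 2.91, 3.30 and 1.84 CPM in those labelled fl/fl. Levels at 24 months stood at 4.98, 1.09, 1.96, 1.85 and 2.86 CPM in Pt-CrAT, against 2.17, 3.34, 2.26, 2.47 and 2.60 CPM in fl/fl. The groups overlapped at 15 and 24 months, and in Pt-CrAT at 24 months the coefficient of variation over libraries was 58.7%, against 18.1% in fl/fl. The log2 fold change was 0.72 at 12 months (SE 0.37, adjusted p = 0.172), 0.48 at 15 months (SE 0.38, adjusted p = 0.647) and -0.01 at 24 months (SE 0.30, adjusted p = 0.994). The difference at 15 months was 0.19 without CrAT15Mchow204, and at 24 months -0.40 without CrAT24Mchow123. In order of mean, the groups ran Pt-CrAT 24 months, fl/fl 24, fl/fl 15, fl/fl 12, Pt-CrAT 15 and Pt-CrAT 12 months, from 2.55 ± 1.497 to 4.54 ± 0.45 CPM, and no neighbours differed by more than the larger SD.

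Averaged over the 3 settings, the genotype difference was 0.40 for Ptpro (SE 0.16, unadjusted p = 0.0181, adjusted p = 0.185), 0.27 for Synpo (SE 0.12, unadjusted p = 0.0317, adjusted p = 0.21), 0.39 for Nphs1, 0.40 for Clic3, -0.04 for Wt1 and -0.28 for Podxl on the log2 scale. In that average 0 of 6 members passed, beside 0.0266% of all genes tested. Ptpro and Synpo were the 2 members with an unadjusted p under 0.05, a mark reached by 20.5% of all genes. DESeq2 gave no adjusted p for 4 of the 6 in this comparison. The average includes the 15-month libraries, where Crat went against the labels.

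**Figure D2:**
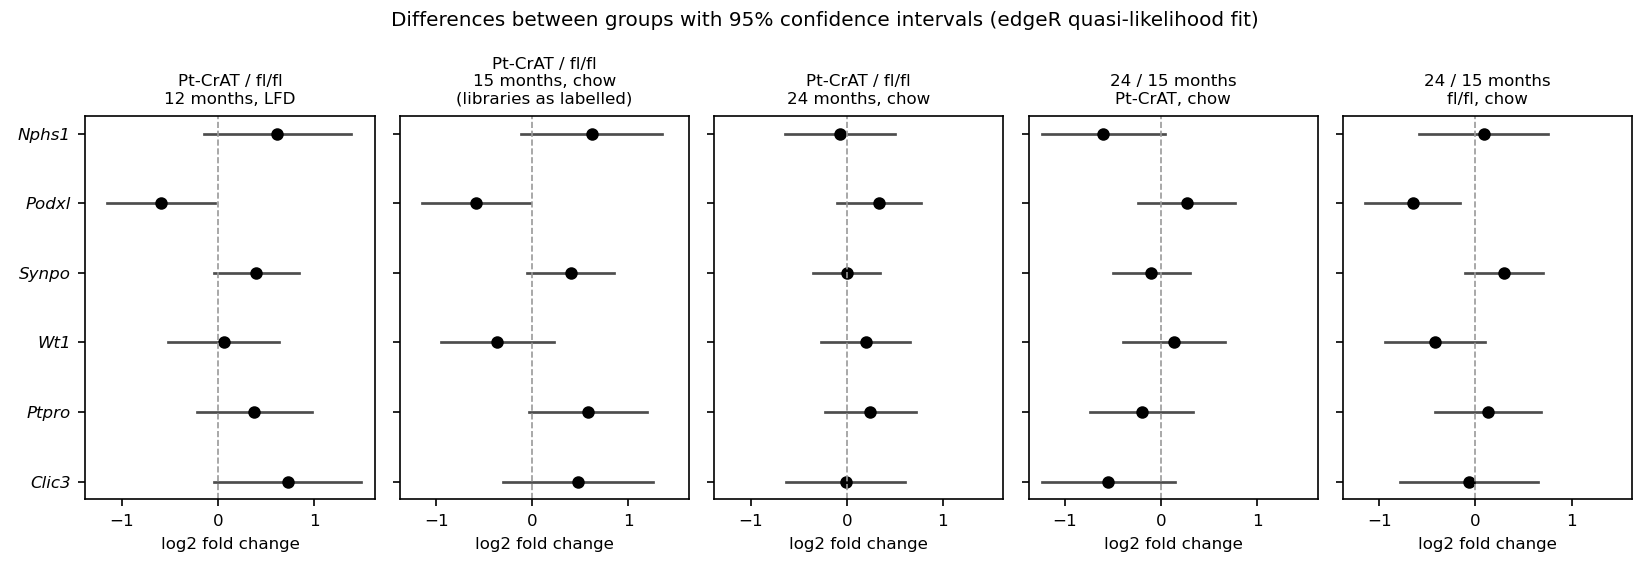
Log2 fold change of each podocyte gene (points, x axis) with its 95% confidence interval (lines) in 5 comparisons from the edgeR fit, genes down the page. At 12 and 15 months Podxl lies left of 0 and Nphs1, Synpo, Ptpro and Clic3 right of it; the intervals that leave out 0 are those of Podxl at 12 and 15 months and between 24 and 15 months in fl/fl.

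Between 24 and 15 months on chow, 0 of 6 members passed in Pt-CrAT (11.3% of all genes did, 5.61% higher and 5.71% lower) and 0 of 6 in fl/fl (1.3% did, 0.823% higher and 0.478% lower). By unadjusted p under 0.05 there were 0 members in Pt-CrAT and 1 (Podxl) in fl/fl, beside 27.5% and 21.7% of all genes. In fl/fl, Podxl averaged 137 ± 47.3 CPM at 24 months and 215 ± 33.2 CPM at 15 months (SD, n = 5 and 3), a log2 fold change of -0.65 (SE 0.24, unadjusted p = 0.0117, adjusted p = 0.131). All 5 values at 24 months lay below all 3 at 15 months, as they did for 8.26% of all genes; 8.7% lay wholly above, and 17% were separated either way. In Pt-CrAT, Podxl averaged 172 ± 29.9 CPM at 24 months and 143 ± 36.0 CPM at 15 months, a log2 fold change of 0.27 (SE 0.24, adjusted p = 0.512). Nphs1 was at -0.60 in Pt-CrAT (SE 0.31, adjusted p = 0.211) and 0.08 in fl/fl (SE 0.33, adjusted p = 0.899). Clic3 was at -0.55 in Pt-CrAT (SE 0.33, adjusted p = 0.294) and -0.07 in fl/fl (SE 0.35, adjusted p = 0.927). Without CrAT24Mchow123 the differences in Pt-CrAT were -0.84 for Nphs1 and -0.94 for Clic3, still short of the threshold, with the lowest adjusted p of any library left out at 0.0899 and 0.0514. Wt1, Synpo and Ptpro lay between -0.20 and 0.14 in Pt-CrAT and between -0.42 and 0.30 in fl/fl. The age comparisons share their libraries with the genotype comparisons, so the values repeat the same measurements from another side, and their 15-month libraries are those in which Crat went against the labels.

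The spread within groups was itself structured. At 24 months CrAT24Mchow123 was the highest Pt-CrAT library for all 6 members, and CrAT24Mchow124 lay below its group mean for all 6. Clic3, for example, was at 4.98 CPM in the first and 1.09 CPM in the second. Without CrAT24Mchow123 the Pt-CrAT means at 24 months were 1.94 ± 0.73 CPM for Clic3, 2.21 ± 0.50 CPM for Nphs1, 11.5 ± 3.46 CPM for Ptpro and 6.36 ± 2.21 CPM for Wt1 (SD, n = 4). Summed markers of several other kidney cells lay at or near the edge of the group range in that library and in CrAT24Mchow136. Not all did. In CrAT24Mchow123 thin limb, medulla and urothelium genes summed to 1634 CPM, in a Pt-CrAT range of 1168 to 1898 CPM. Macrophage and myeloid genes summed to 551 CPM there, in a range of 436 to 785 CPM. The 8 listed genes of the proximal tubule S3 segment summed to 526.3 CPM in CrAT24Mchow123, where the Pt-CrAT group spanned 526.3 to 1466 CPM and fl/fl 1231 to 2008 CPM. The 10 parietal epithelial genes summed to 417 CPM there, the highest of a Pt-CrAT range that began at 237 CPM, against 261 to 327.45 CPM in fl/fl. CrAT24Mchow136 had nearly the same sums of these 2 lists, 563.9 CPM for S3 and 410.8 CPM for parietal genes. Its podocyte members lay lower, with 2 of the 6 above the group mean. Other glomerular lists differed between the 2 libraries. Glomerular endothelial genes summed to 567 CPM in CrAT24Mchow123, the highest of the Pt-CrAT group, and 419.5 CPM in CrAT24Mchow136, the lowest. Mesangial and juxtaglomerular genes summed to 371.6 and 333.6 CPM, in a Pt-CrAT range of 321 to 378 CPM. The part of these markers in the podocyte values was not tested. The total count of CrAT24Mchow123, 13123078, lay within the range of the others.

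**Figure D3:**
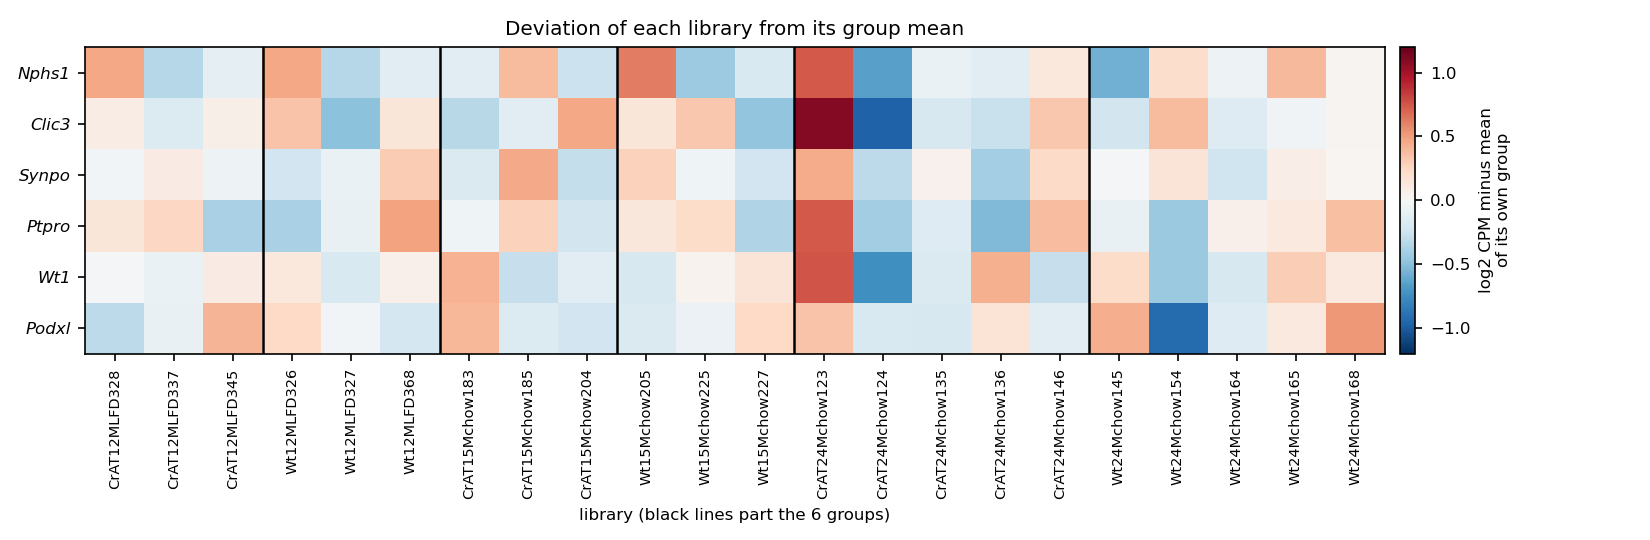
Deviation of every library (x axis, titles; black lines part the 6 groups) from the mean of its own group for each podocyte gene (rows), in log2 CPM, red above and blue below the mean. CrAT24Mchow123 is red in all 6 rows and CrAT24Mchow124 blue in all 6, and the Podxl row differs from the upper 4 rows in many other columns.

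With the group means taken off, the 6 genes did not move as 1 block over the 22 libraries. Correlations below describe pairs of values from the same library, which share its scaling factor, and are given without a test. Synpo and Ptpro went together (Pearson r = 0.74, Spearman rho = 0.70), and so they did at 24 months (r = 0.72) and in the 12 younger libraries (r = 0.77). Only 14 of 9358 other genes followed Ptpro more closely than Synpo did, and 33 followed Synpo more closely than Ptpro did. Podxl and Wt1 went together as well (r = 0.69, rho = 0.71), with r = 0.69 at 24 months and 0.73 in the younger libraries. Here 34 genes followed Wt1 more closely than Podxl did, but 330 followed Podxl more closely than Wt1 did. Nphs1 and Clic3 had r = 0.61 and rho = 0.56, with r = 0.87 at 24 months and 0.24 in the younger libraries.

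Podxl stood apart from the remaining members. Its r was -0.19 with Synpo, -0.08 with Nphs1, -0.07 with Clic3 and 0.09 with Ptpro. In the 12 younger libraries Podxl ran against Ptpro (r = -0.69) and Synpo (r = -0.48), while at 24 months r was 0.51 with Ptpro and 0.00057 with Synpo. Of the 15 pairs, 12 had an r above 0 and 6 an r above 0.4. The highest correlation with each member, among genes with a mean of at least 5 CPM, was of Amotl1 with Podxl (0.88), Cd300lg with Synpo (0.85), Pcdh12 with Ptpro (0.81), Epcam with Wt1 (0.79), Adgrf5 with Nphs1 (0.75) and Camta2 with Clic3 (0.75). None of these 6 was in the podocyte lists. With the 2 libraries farthest from the median of the first gene left out, r was 0.66 for Synpo and Ptpro, 0.71 for Podxl and Wt1, and 0.48 for Nphs1 and Clic3.

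**Figure D4:**
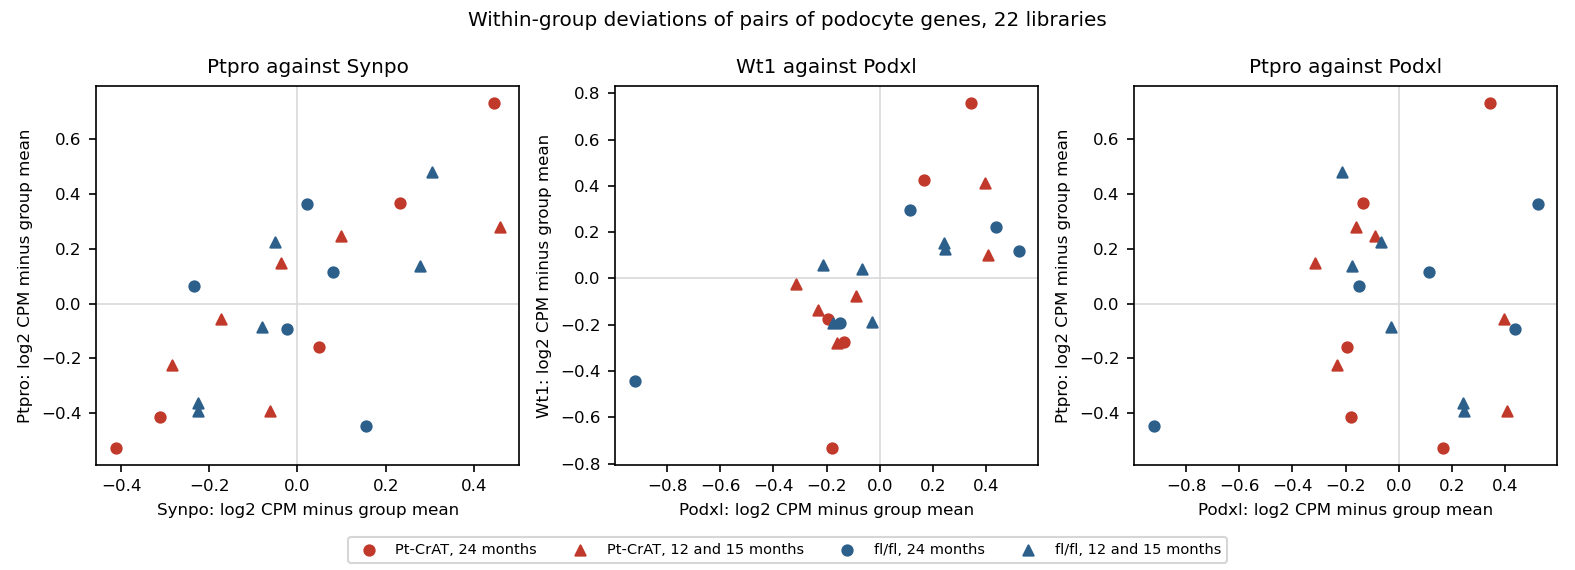
Deviations from the group mean (log2 CPM) of pairs of podocyte genes, 1 point per library, Pt-CrAT in red and fl/fl in blue, circles at 24 months and triangles at 12 and 15 months. Ptpro climbs with Synpo and Wt1 with Podxl, while in the right panel the triangles of Ptpro fall as Podxl climbs.

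The gene whose within-group pattern was most like the mean of the 6 members was Cdkn1c, which encodes p57, a cell-cycle inhibitor of mature podocytes (r = 0.91, rho = 0.83, rank 1 of 9358 genes with a mean of at least 5 CPM). It stood at 33.1, 13.7, 14.6, 17.9 and 19.3 CPM in Pt-CrAT at 24 months, against 16.7, 13.7, 15.3, 16.4 and 21.5 CPM in fl/fl. Next came Tmem150c (0.81), Sema3g (0.79), Thsd7a (0.73), Plce1 (0.69), Boc (0.69), Myom2 (0.67) and Fhod3 (0.67). Of these 8 genes, 5 were on the podocyte lists: Cdkn1c, Tmem150c, Sema3g, Thsd7a, whose protein sits in the podocyte membrane, and Plce1, a phospholipase of podocytes. This ranking rested on 2 libraries: without CrAT24Mchow123 and CrAT24Mchow124, 1 of the 8 kept its place among the first 8, with Cdkn1c at r = 0.73 and rank 4. Of the 55 podocyte genes tested outside the 6, 46 had a mean of at least 5 CPM, as the candidates did, and 11 of these had an r over 0.4 with the mean of the members, 23.9% against 3.52% of all candidate genes. Without the 2 libraries the shares were 13% and 2.68%.

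Beyond the 6 members, 60 further podocyte genes were listed in 3 groups, and 55 were tested. At 12 months 10 of the 55 passed, 4 rising and 6 falling in Pt-CrAT, a share of 18.2% beside 16.4% of all genes tested, with a median log2 fold change of -0.03. Of 22 slit-diaphragm and foot-process genes, 2 rose and 4 fell. Actn4, an actin cross-linker whose faults cause glomerular scarring, averaged 98.5 ± 29.3 CPM in Pt-CrAT and 204.9 ± 77.3 CPM in fl/fl (SD, n = 3 each; log2 fold change -1.05, adjusted p = 0.016). Arhgdia, which encodes an inhibitor of small GTPases, averaged 137 ± 18.5 CPM in Pt-CrAT and 93.3 ± 8.57 CPM in fl/fl (log2 fold change 0.55, adjusted p = 0.0225). Nck2, an adaptor that binds nephrin, was at -1.05, the cadherin Fat1 at -1.29, Clic5, of the same family as Clic3, at -0.50 and the intermediate filament gene Nes at 0.70. Of 11 transcription and cell-cycle genes 1 rose, Nfia (0.65), which the tubule also expresses. Of 22 other markers Col4a3, a collagen chain of the glomerular basement membrane, rose (0.66), and the growth factor Vegfa (-1.12) and the peptidase Dpp4 (-1.01) fell; tubule cells make both.

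The number of 12-month calls moved both ways when libraries were left out, a check chosen after seeing the data. Of the 55 genes, 0 passed without CrAT12MLFD328, 1 without CrAT12MLFD337, 16 without CrAT12MLFD345, 1 without Wt12MLFD326, 12 without Wt12MLFD327 and 11 without Wt12MLFD368. Actn4 and Arhgdia each passed in 3 of these 6 fits. Over the 22 libraries their within-group r with the mean of the members was 0.0067 and 0.30. There were 0 calls without Wt12MLFD326 and CrAT12MLFD328 together, and 0 in a fit of the 6 libraries of this setting alone. Adipocyte markers moved with genotype in the same libraries: 6 of 7 tested rose, where 8.41% of all genes did. The 7 summed to 353 to 881 CPM in Pt-CrAT and 133 to 275 CPM in fl/fl. These calls were unstable too. Of the 6 fits with 1 library left out, Adipoq, Cidec and Retn passed in 5, Cfd in 3, Plin1 in 2 and Car3 in 1. All 6 adipocyte calls were lost without Wt12MLFD326. Their part in the podocyte values was not tested.

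At 15 months and at 24 months 0 of the 55 passed between Pt-CrAT and fl/fl, as with 0% of all genes. By unadjusted p under 0.05, 5 of the 55 (9.09%) were found at 15 months, where 8.29% of all genes did, and 1 (1.82%) at 24 months, where 9.35% did. The smallest p at 15 months was that of Sema3g, at 30.9 CPM in libraries labelled Pt-CrAT and 22.9 CPM in those labelled fl/fl on average (log2 fold change 0.43, SE 0.17, adjusted p = 0.581). At 24 months it was that of Cd2ap, an adaptor that ties nephrin to actin, at 59.3 ± 4.29 CPM in Pt-CrAT and 49.0 ± 2.26 CPM in fl/fl (SD over 5 libraries each). Its log2 fold change was 0.27 with an SE of 0.09, and the adjusted p was 0.461. All 5 Pt-CrAT values of Cd2ap lay above all 5 fl/fl values, as for 0.737% of all genes, while 0.797% lay wholly below.

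Between 24 and 15 months in Pt-CrAT, 4 of the 55 passed and all 4 rose, 7.27% beside 11.3% of all genes. They were Nupr1, a stress-responsive chromatin protein (63.7 ± 30.6 CPM at 24 months and 22.1 ± 4.58 CPM at 15 months, SD, n = 5 and 3; log2 fold change 1.52, adjusted p = 0.0187), the transcription factor Foxc1 (1.07), the actin-nucleating formin Inf2 (0.57) and Cd2ap (0.34). The within-group r with the mean of the members was 0.45 for Nupr1, 0.24 for Foxc1, -0.15 for Inf2 and 0.09 for Cd2ap. Without CrAT24Mchow123 and CrAT24Mchow124 it was 0.10, -0.04, 0.10 and -0.10. With 1 library left out, 0 of the 55 passed without CrAT15Mchow185 or CrAT15Mchow204, 2 without CrAT24Mchow136, 4 without CrAT15Mchow183, CrAT24Mchow123 or CrAT24Mchow124, 5 without CrAT24Mchow135 and 6 without CrAT24Mchow146. Without CrAT24Mchow123 and CrAT24Mchow136 together, 0 passed. In fl/fl 0 of the 55 passed, beside 1.3% of all genes, and 14 (25.5%) had an unadjusted p under 0.05, beside 21.7% of all genes. The smallest p there was that of Iqgap1, a scaffold of the actin skeleton (log2 fold change 0.46, SE 0.14, adjusted p = 0.0839). Markers of other cells moved with age in Pt-CrAT and, with fewer calls, in fl/fl. Of 18 genes of proximal tubule S1 and S2, 10 fell in Pt-CrAT, where 5.71% of all genes did. The list summed to 12787 to 18129 CPM at 24 months and 24309 to 27796 CPM at 15 months. In fl/fl 1 of the 18 fell past the threshold, and 17 had a log2 fold change below 0. The fl/fl sums were 17363 to 21023 CPM at 24 months and 21683 to 25114 CPM at 15 months. Of 9 tested genes of thin limb, medulla and urothelium 7 rose in Pt-CrAT, where 5.61% of all genes did. Of 11 mesangial and juxtaglomerular genes 5 rose there, among them Pdgfrb (1.08) and Rgs5 (1.10). In fl/fl 0 and 1 of these markers rose past the threshold, and 9 of 9 and 9 of 11 had a log2 fold change above 0. Their part in the podocyte values was not tested.

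**Figure D5:**
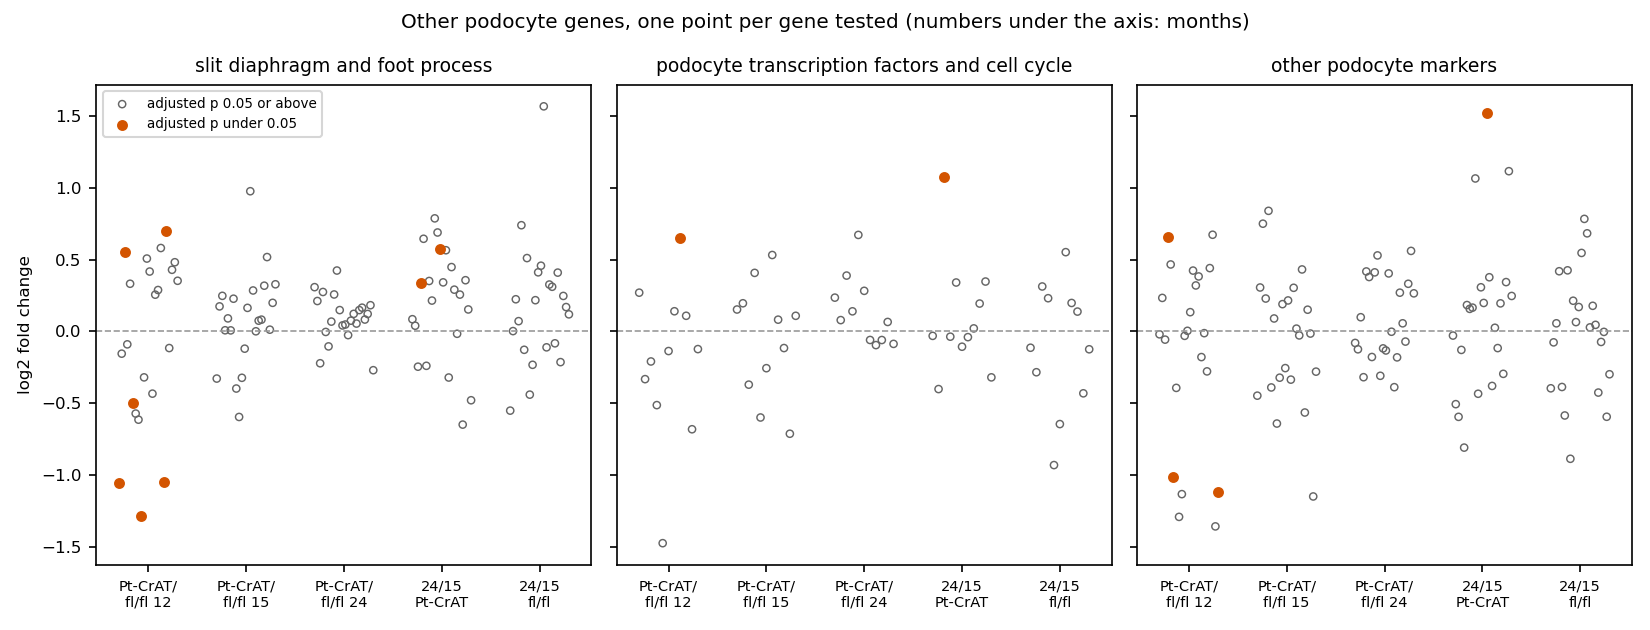
Log2 fold change (y axis) of each of the 55 other podocyte genes tested, in 3 lists (panels) and 5 comparisons (x axis), with genes at an adjusted p under 0.05 filled in orange. Orange points appear at 12 months on both sides of 0 and between 24 and 15 months in Pt-CrAT above 0, and the genotype comparisons at 15 and 24 months have none.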

How the data were processed

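Per the labels' protocols, TRIzol was used to isolate the RNA and the library kit was Lexogen QuantSeq 3′ FWD. The submitters' processing notes name GRCm38, R 3.4.3 and DESeq2 1.18.1. For aligner, counter, strand setting and annotation, the sources used here give no name. The count table, as the authors deposited it, holds whole reads per gene, and every test starts from it. The normalized signal table of the authors served to check that recomputed size factors equal the implied ones (largest relative gap 5.2e-12). A further table, of totals for some of the libraries, was left aside.

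The 6 members were matched by symbol to their Ensembl identifiers. Of 16556 identifiers, 16514 were found in GENCODE M21. The members and the 15 gene lists were chosen with earlier results of these data known. Testing used edgeR 4.0.16 under R 4.3.3, with TMM scaling and filterByExpr over the 6 groups. A robust quasi-likelihood fit held the 22 libraries in a single model (16 residual degrees of freedom), with Benjamini-Hochberg adjusted p-values over 15064 genes and a threshold of 0.05. The biological coefficient of variation over all genes was 20.5%. The test was also run on simulated counts, drawn with the fitted spread of each gene. These held no shift shared by many genes of a library, so they cannot speak to calls that turn on such shifts. In each of the 32 library pairs within groups, counts differed beyond sampling error (chi-square over its degrees of freedom 10.2 to 134), and each library counted once. Precision is set by the spread between libraries, and reads carry no molecular identifiers, so they need not be separate molecules.

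Named genes were the 6 members, from each list those passing with the largest change and those with the smallest p, and the 8 genes most like the mean of the members (log2 CPM, prior count 2, group means removed). The closest gene of each single member was looked up after the values were seen. Alternatives were DESeq2 1.42.0, limma-voom (limma 3.58.1), DESeq2 size factors, no filter, the libraries of 1 comparison alone, and libraries left out. Crat was tested by exact permutation. Some genes of the lists are counted but not reported by name here.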

Additional observations from a re-analysis of the deposited data

Results flagged for a closer look

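Within groups of 5 libraries, 46 sets of values were searched for a library far from the other 4, and 4 were found; chance flags about 1 in 20 groups. The summed slit-diaphragm and foot-process genes stood at 822 CPM in CrAT24Mchow123, where the Pt-CrAT group at 24 months began at 689 CPM and its median was 720 CPM. The same library was the highest of its group for all 6 podocyte members. The genes of that sum with the highest means over the 22 libraries were Actn4 (133 CPM), Arhgdia (112 CPM) and Iqgap1 (101 CPM). The summed podocyte transcription and cell-cycle genes stood at 464 CPM in Wt24Mchow154, where the median of fl/fl at 24 months was 403 CPM. That library also had the lowest Podxl value of all 22, 67.9 CPM. The gene of that sum with the highest mean was Nfia, which the tubule also expresses, at 232 CPM over the 22 libraries. The summed proximal tubule S1 and S2 genes stood at 21023 CPM in Wt24Mchow168, where the median of fl/fl was 17730 CPM. Crat stood at 28.4 CPM in CrAT24Mchow136, the lowest of the Pt-CrAT group at 24 months, whose median was 37.9 CPM.

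The genotype difference varied among the 3 settings, by the edgeR test of that variation over all genes, for 16 of 194 genes examined (8.25%, beside 5.07% of all genes): Crat, the 6 members and the genes of all lists. None of the 6 members was among them. For Crat the adjusted p was 0.0319, with log2 fold changes of -0.33, 0.61 and -1.04 at 12, 15 and 24 months. Among listed podocyte genes these were Actn4 (adjusted p = 0.0467) and Arhgdia (0.0439). On the lists for other glomerular cells and glomerular stress they were Gpihbp1 (0.0361), Rgs5 (0.0484), Pax8 (0.0412) and the stress-linked filament gene Des (0.0363). In whole cortex, the cells that gave these reads are not known. Of 7 adipocyte genes 5 were called, Adipoq (0.0321), Cfd (0.0316), Retn (0.0324), Cidec (0.0347) and Car3 (0.0432). Tubule and urothelium genes were Slc7a8 (0.0401), Lrp2 (0.04), Hsd11b2 (0.02) and Krt15 (0.0438). The part of these markers in the podocyte values was not tested. Over all genes the number passing, 764, ran from 2 to 2195 with 1 library left out. The test of variation takes the 15-month libraries as labelled, where Crat went against the labels.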

How the results depend on the processing

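Of 732 values of the 6 members recomputed under an alternative, 3 came to pass the threshold, all for Podxl in the test of variation among settings (given with that result), and 28 changed sign, all of them differences that had not passed. For Synpo at 24 months these were -0.0092 with DESeq2 size factors, -0.0021 without a filter, -0.0092 with DESeq2, -0.027 with limma-voom, and -0.039 without CrAT24Mchow123 and CrAT24Mchow136. Without those 2 libraries Wt1 was at -0.29 at 24 months and at -0.34 between 24 and 15 months in Pt-CrAT. With 1 library left out, the log2 fold changes that crossed 0 ran from -0.014 to 0.13 for Wt1 at 12 months; at 24 months from -0.40 to 0.18 for Clic3, -0.31 to 0.074 for Nphs1, -0.12 to 0.088 for Synpo and -0.034 to 0.35 for Wt1; from -0.12 to 0.016 for Wt1 averaged over settings; between 24 and 15 months from -0.23 to 0.17 for Synpo and -0.092 to 0.38 for Wt1 in Pt-CrAT, and from -0.14 to 0.47 for Nphs1, -0.029 to 0.24 for Ptpro and -0.28 to 0.10 for Clic3 in fl/fl. The number of members passing was 0 in every comparison, apart from 1 in the variation test with DESeq2, and 0 to 1 there with 1 library left out.

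The background moved more. With DESeq2, 13 genes passed at 24 months, 244 for the average over settings, 2461 for the variation test and 764 between 24 and 15 months in fl/fl. In fits of 1 setting alone, 1 gene passed at 12 months and 4 at 15 months. Without CrAT24Mchow123 and CrAT24Mchow136, 1 gene passed for the average, 30 for the variation test and 417 between 24 and 15 months in Pt-CrAT. Without Wt12MLFD326 and CrAT12MLFD328, 19 passed at 12 months, 2 for the average and 2 for the variation test. With 1 library left out, 53 to 3513 genes passed at 12 months, 0 to 2 at 24 months, 1 to 262 for the average, 2 to 2195 for the variation test, and between 24 and 15 months 393 to 1777 in Pt-CrAT and 3 to 756 in fl/fl. The cause was not tested. No paired analysis was possible because no replicate number is shared between groups. The low counts of Nphs1 and Clic3 limit what could be detected in them.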
